A study of Mus musculus with 6 samples.

Results

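The 10 genes described here make, load and switch on the major histocompatibility complex (MHC) class I molecules of the mouse: the heavy chains H2-K1, H2-D1, H2-Q4, H2-T22 and H2-T23, the light chain B2m, the peptide transporter subunits Tap1 and Tap2, the loading chaperone Tapbp and the transcriptional activator Nlrc5. They were picked by symbol from the 55416 genes of the deposited table, and the choice was made with the siPkm2-over-siNC values of these same libraries already known. Their differences between the groups are therefore a description, with no test. Genes of the same pathway outside the 10 were tested over all genes. Their lists were also chosen with earlier results of these data known, which limits those tests. All 10 passed the filter on low counts, which left 15269 genes.

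In the study, primary mouse chondrocytes, the cells of cartilage, received either a scrambled siRNA as control (siNC) or an siRNA that targets Pkm2 (siPkm2), a splice form of pyruvate kinase, to learn which transcripts change when the enzyme is depleted. RNA-seq libraries were made from total RNA of 3 samples per group, and replicate numbers 1 to 3 occur in both groups. The labels describe cells from knee joints of neonatal mice with a wild-type genotype in siNC, give no strain, and write the knockdown of siPkm2 replicates 2 and 3 with other PKM numbers although their titles read siPKM2, so all 3 were taken as siPkm2. The study's methods describe adult mice as the source of such cells, a transient knockdown rather than a deletion, and no passage of the cultures, and the supplement says that of the siRNAs designed against Pkm2 the third was taken forward, without naming the sequenced samples.

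Class I molecules display peptides from inside the cell to CD8+ T cells and to natural killer cells. Proteasomes cut cytosolic proteins, the Tap1-Tap2 transporter pumps the peptides into the endoplasmic reticulum, and tapasin (Tapbp) holds an empty heavy chain with B2m beside the transporter until a peptide binds. Almost every nucleated cell makes class I molecules at a low basal level, and interferons, inflammatory cytokines and the activator Nlrc5 raise the whole set together through shared promoter elements.

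The libraries held 22316996 to 25691029 counts each, so depth was alike in the groups. Pkm, which encodes Pkm2 and its splice form Pkm1, stood at 1654, 2209 and 1293 TPM (transcript abundance scaled for gene length and library total) in siNC replicates 1, 2 and 3 and at 245, 428 and 231 TPM in siPkm2, with a log2 fold change of -2.53 ± 0.13 (SE, n = 3 pairs, adjusted p = 0.00932 by edgeR's quasi-likelihood test with the replicate number as a block; 0.0738 without the block). Replicate 2 of both groups stood apart from replicates 1 and 3. The summed level of 11 chondrocyte markers was 4376 TPM in siNC replicate 2 against 19751 and 21589 TPM in the other two siNC libraries, and 5861 TPM in siPkm2 replicate 2 against 17012 and 17532 TPM. Libraries with the same number deviated from their group means together, with correlations of 0.72, 0.79 and 0.72 across genes, so a number was read as a pair.

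All 10 class I genes were higher in siPkm2 than in siNC within each of the 3 pairs, which held for 30.5% of all genes tested. Across groups they overlapped without exception. siNC replicate 2 lay above siPkm2 replicates 1 and 3 for 10 of 10 genes (41.9% of all genes tested), and none of the 10 had groups that did not overlap, against 24.3% of all genes. The difference within a pair was smallest in pair 2 for all 10 genes, a pattern shared by 36.6% of all genes tested.

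**Figure D1:**
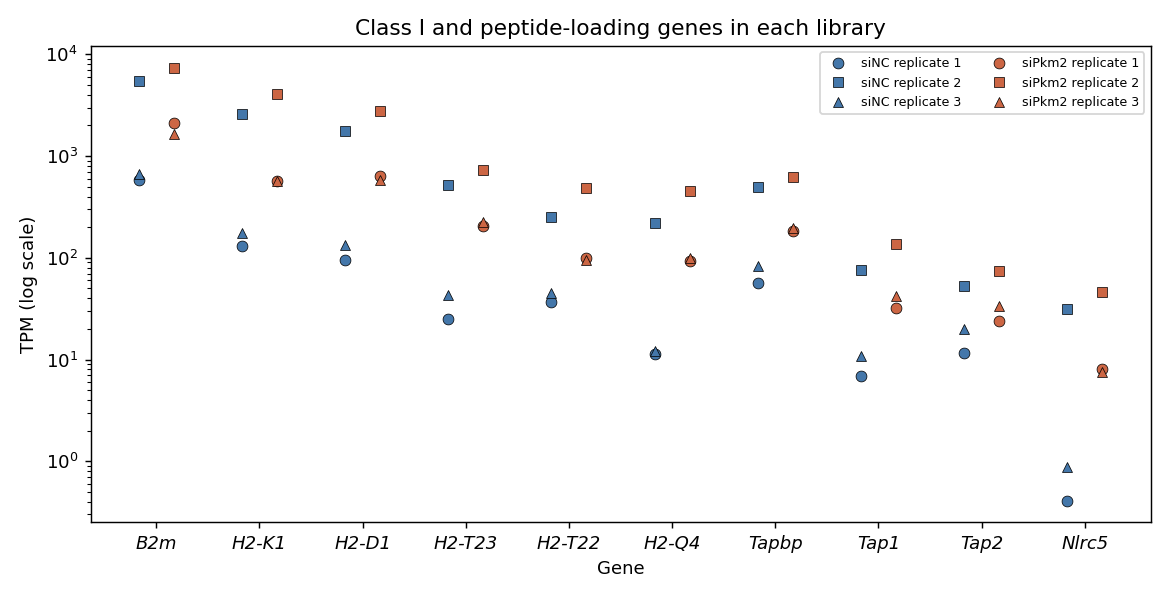
TPM of each of the 10 genes (log scale) in the 3 siNC libraries (blue) and the 3 siPkm2 libraries (orange), with circles, squares and triangles for replicates 1, 2 and 3. Squares lie highest in both groups for every gene, and the siPkm2 point lies above the siNC point of the same shape throughout.

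The classical heavy chains H2-K1 and H2-D1 carry most of the peptides shown to CD8+ T cells. H2-K1 (ENSMUSG00000061232, GRCm38 chr17:33996017-34000347, minus strand) was measured at 131, 2575 and 174 TPM in siNC replicates 1, 2 and 3 and at 563, 4035 and 569 TPM in siPkm2. H2-D1 (ENSMUSG00000073411, chr17:35262730-35267499, plus strand) stood at 94.8, 1764 and 132 TPM in siNC and at 631, 2796 and 581 TPM in siPkm2. In both genes the control library of replicate 2 exceeded the knockdown libraries of replicates 1 and 3 several times over, while each knockdown library exceeded its own control. Within pairs 1, 2 and 3 the log2 ratio of normalised counts was 2.13, 0.74 and 1.81 for H2-K1 and 2.71, 0.73 and 2.19 for H2-D1. With the replicate block the fitted log2 fold change was 1.57 ± 0.28 (SE, n = 3 pairs) for H2-K1 and 1.89 ± 0.39 for H2-D1, and without it 0.94 ± 1.32 and 1.09 ± 1.2.

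The balance of these heavy chains also differed between libraries. On the TPM scale H2-K1 stood at 1.38, 1.46 and 1.31 times H2-D1 in siNC replicates 1, 2 and 3, and at 0.893, 1.44 and 0.980 times in siPkm2. H2-D1 was the higher of the pair only in siPkm2 replicates 1 and 3, and the replicate 2 libraries had nearly the same ratio in both groups.

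The non-classical heavy chains showed the same layout at lower levels. H2-Q4 (ENSMUSG00000035929, chr17:35379617-35385290, plus strand), a Q-region heavy chain, was at 11.4, 218 and 12 TPM in siNC and at 93.6, 453 and 98.7 TPM in siPkm2. Its log2 ratios within pairs were 2.92, 1.11 and 3.01, and its blocked fold change of 2.36 ± 0.42 on the log2 scale was the highest of the 10. H2-T23 (ENSMUSG00000067212, chr17:36029773-36032855, minus strand) encodes the Qa-1 chain, which presents leader peptides of other class I molecules to the CD94-NKG2A receptor of natural killer cells. It was measured at 25.3, 524 and 43.1 TPM in siNC and at 205, 729 and 227 TPM in siPkm2, with a blocked log2 fold change of 2.0 ± 0.49 and ratios within pairs of 2.93, 0.54 and 2.46. H2-T22 (ENSMUSG00000056116, chr17:36037128-36042747, minus strand), a heavy chain recognised by some gamma-delta T cells, was at 36.9, 254 and 45.3 TPM in siNC and at 98.7, 487 and 95.2 TPM in siPkm2. Unlike the other heavy chains, H2-T22 had similar ratios in all pairs, 1.37, 1.00 and 1.14, and its blocked log2 fold change was 1.17 ± 0.10.

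Counts of some heavy chains can be split between near-identical copies. Of the 50-base windows of annotated H2-T22 transcripts, 43.9% also occurred in transcripts of other genes, mostly in H2-T10 (37.5%). The share was 28.8% for H2-T23, 24.3% for H2-Q4, 13.9% for H2-D1 and 6.87% for H2-K1, against 0% for B2m and Nlrc5. The values of H2-T22, H2-T23 and H2-Q4 are therefore uncertain. These shares describe sequence, and the size of any error in the counts was not estimated. B2m and Nlrc5 had whole counts in every library, whereas the other 8 genes had fractional ones.

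The promoters of H2-K1, H2-D1 and H2-Q4 are shown because these heavy chains share a block of elements. All 10 genes varied together, not only these, and whether the elements bear on the levels was not tested. The windows run from 250 bases before to 50 after the annotated start, from RefSeq's GRCm38.p6 table, which matched 8 of the 10 genes and not Tap2 or Nlrc5. Capitals mark matches to an interferon-response pair (GAAANNGAA or GAANNGAAA), a kappa B element (GGGANNNCC) and a Y box (ATTGG), each searched on both strands.
H2-K1: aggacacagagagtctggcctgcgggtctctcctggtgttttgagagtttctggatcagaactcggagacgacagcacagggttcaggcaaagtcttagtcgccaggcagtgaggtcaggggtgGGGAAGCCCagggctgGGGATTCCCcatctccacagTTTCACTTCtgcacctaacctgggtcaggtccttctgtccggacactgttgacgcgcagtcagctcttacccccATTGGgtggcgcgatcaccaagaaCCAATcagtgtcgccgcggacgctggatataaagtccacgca
H2-D1: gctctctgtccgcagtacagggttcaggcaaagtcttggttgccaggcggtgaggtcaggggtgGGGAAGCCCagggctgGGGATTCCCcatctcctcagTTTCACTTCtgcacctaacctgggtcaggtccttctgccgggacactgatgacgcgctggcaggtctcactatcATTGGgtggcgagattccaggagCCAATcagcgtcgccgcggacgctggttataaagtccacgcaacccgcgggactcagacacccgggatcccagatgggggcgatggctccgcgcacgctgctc
H2-Q4: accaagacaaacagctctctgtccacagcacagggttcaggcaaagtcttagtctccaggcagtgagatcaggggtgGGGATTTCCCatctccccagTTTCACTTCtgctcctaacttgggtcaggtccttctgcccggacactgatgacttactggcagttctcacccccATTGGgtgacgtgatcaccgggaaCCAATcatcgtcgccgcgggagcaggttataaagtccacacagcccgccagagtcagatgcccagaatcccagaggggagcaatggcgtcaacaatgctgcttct
These windows lie at chr17:34000298-34000597 (minus strand), chr17:35262844-35263143 (plus strand) and chr17:35379367-35379666 (plus strand). Aligned, H2-K1 and H2-D1 were identical at 88.3% of 239 bases, H2-K1 and H2-Q4 at 85.2% of 230, and H2-D1 and H2-Q4 at 83.1% of 284. In each, kappa B matches come first, followed by the interferon-response match TTTCACTTC and then by Y boxes. The interferon-response match starts at position -90 from the annotated start in H2-K1, at -150 in H2-D1 and at -153 in H2-Q4. RefSeq's table holds another start for H2-K1, with the window chr17:34000284-34000583, in which this match lies at -104 and the Y boxes at -30 and -6; the window shown is the one at the start of the GENCODE gene. H2-K1 and H2-D1 hold the same pair of kappa B matches, GGGAAGCCC and GGGATTCCC, and the kappa B matches of H2-Q4 overlap each other.

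Over the 8 genes with a window, the interferon-response pair was found in 6, all of the heavy chains and B2m but neither Tap1 nor Tapbp, and in 14.8% of all 32851 windows of this length. The RefSeq starts used for H2-D1, H2-T23 and Tapbp lie inside their GENCODE genes. The Tapbp window, chr17:33919228-33919527, lies wholly within a gene that starts at 33915899, so its lack of a match covers that window only. A kappa B match as spelled above occurred in 3 of 8 (18.6% of all windows), and with the interferon-response pair in 3 of 8 (2.24%). Other kappa B spellings were not searched, so these counts cover that spelling only. A Y box occurred in 8 of 8 (37.4%), the cAMP-response letters TGACG in 6 of 8 (20.8%), and the gamma-activated site TTCNNNGAA in 0 of 8 (8.30%). These motifs were chosen after the windows had been read, a match is a description of letters, and H2-K1, H2-D1 and H2-Q4 are not independent of each other in sequence.

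B2m, the light chain that every class I heavy chain needs to reach the cell surface, was the most abundant of the 10. B2m (ENSMUSG00000060802, chr2:122147686-122153083, plus strand) stood at 577, 5481 and 668 TPM in siNC and at 2101, 7421 and 1662 TPM in siPkm2. By TPM it ranked 235th, 11th and 214th among all genes in siNC replicates 1, 2 and 3, and 69th, 6th and 93rd in siPkm2. Its log2 ratio within pairs was 1.80, 0.49 and 1.39, with a blocked fold change of 1.23 ± 0.26 on the log2 scale. Its promoter and that of H2-T23 are given to set beside the heavy chains. Each holds an interferon-response match, a single Y box and no kappa B match as spelled above. The B2m window also holds the run gggaaagtccc, which that spelling does not match, and longer kappa B spellings were not searched.
B2m: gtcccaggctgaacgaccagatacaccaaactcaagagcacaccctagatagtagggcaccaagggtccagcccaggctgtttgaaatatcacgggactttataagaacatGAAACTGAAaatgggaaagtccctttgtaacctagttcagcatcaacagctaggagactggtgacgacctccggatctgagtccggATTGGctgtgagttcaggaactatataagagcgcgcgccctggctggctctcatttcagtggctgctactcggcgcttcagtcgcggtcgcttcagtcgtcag
H2-T23: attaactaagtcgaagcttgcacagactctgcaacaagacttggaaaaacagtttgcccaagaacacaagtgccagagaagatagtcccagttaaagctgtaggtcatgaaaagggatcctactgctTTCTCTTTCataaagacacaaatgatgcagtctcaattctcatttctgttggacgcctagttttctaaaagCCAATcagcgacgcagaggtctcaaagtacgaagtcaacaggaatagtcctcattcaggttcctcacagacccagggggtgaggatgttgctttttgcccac
The B2m window is chr2:122147437-122147736 (plus strand) with the interferon-response match GAAACTGAA at -139, and the H2-T23 window is chr17:36032652-36032951 (minus strand) with TTCTCTTTC at -123.

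Heavy chain and light chain did not keep a fixed proportion. The summed TPM of the 5 heavy chains was 0.519, 0.973 and 0.609 times that of B2m in siNC replicates 1, 2 and 3, and 0.757, 1.15 and 0.945 times in siPkm2. The ratio was higher in siPkm2 in every pair, and siNC replicate 2 lay above siPkm2 replicates 1 and 3.

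Tap1 and Tap2 form the transporter that carries peptides into the endoplasmic reticulum. Tap1 (ENSMUSG00000037321, chr17:34187553-34197225, plus strand) was at 6.93, 75.1 and 10.8 TPM in siNC and at 32.0, 137 and 42.1 TPM in siPkm2. Tap2 (ENSMUSG00000024339, chr17:34203527-34216321, plus strand) was at 11.6, 53.0 and 19.7 TPM in siNC and at 24, 74.9 and 33.2 TPM in siPkm2. The transporter subunits differed in size of change: the blocked log2 fold change was 1.69 ± 0.26 for Tap1 and 0.78 ± 0.11 for Tap2, the lowest of the 10. Tap1 stood at 0.598, 1.42 and 0.545 times Tap2 on the TPM scale in siNC and at 1.33, 1.83 and 1.27 times in siPkm2, so Tap2 was the more abundant subunit only in siNC replicates 1 and 3. The annotated 5′ end of Tap1 overlaps Psmb9 on the opposite strand, and how strand was treated in counting is not given in the sources used here, so reads from this overlap may be counted for either gene.

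Tapbp encodes tapasin, the chaperone that bridges the heavy chain and the transporter. Tapbp (ENSMUSG00000024308, chr17:33915899-33929292, plus strand) was measured at 57.1, 499 and 83.3 TPM in siNC and at 182, 620 and 197 TPM in siPkm2. The log2 ratios within pairs were 1.72, 0.39 and 1.25, the ratio of pair 2 being the lowest of any of the 10 genes in any pair, and the blocked fold change was 1.12 ± 0.26 on the log2 scale.

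Nlrc5 is the activator that assembles on class I promoters with the RFX and NF-Y factors. Nlrc5 (ENSMUSG00000074151, chr8:94434356-94527272, plus strand) was near the bottom of the range in siNC replicates 1 and 3, at 0.41 and 0.88 TPM, and at 31.2 TPM in siNC replicate 2, a level 27.8 times the mean of the other two in normalised counts. In siPkm2 it stood at 8.08, 46.2 and 7.51 TPM in replicates 1, 2 and 3. Pair 1 differed 17.5-fold, pair 2 by 1.80-fold and pair 3 by 6.43-fold, and the blocked log2 fold change of 2.27 ± 0.59 had the widest error of the 10.

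**Figure D2:**
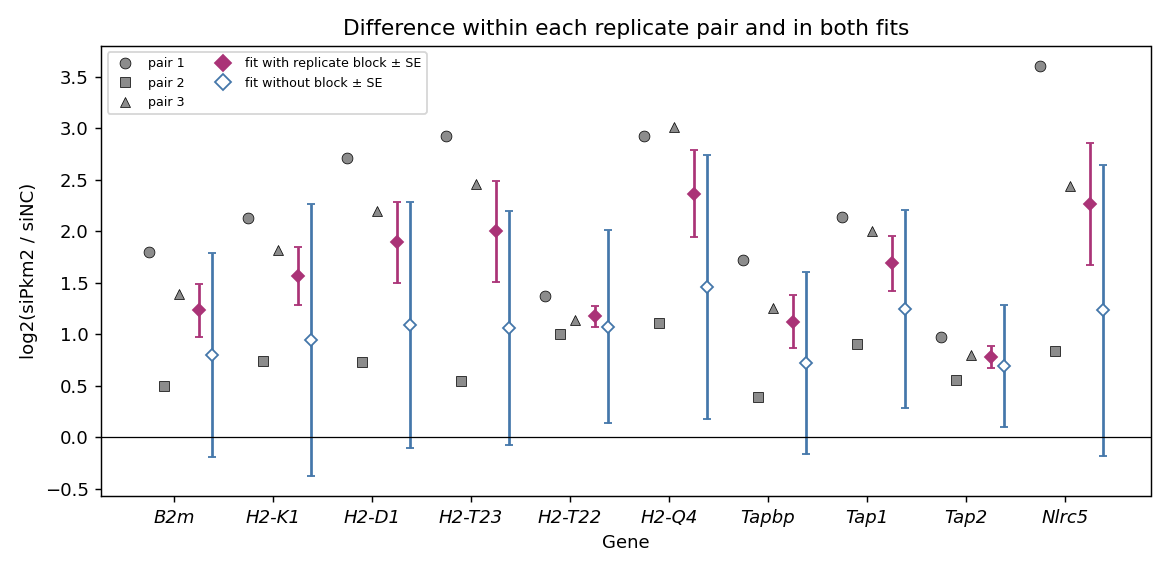
Log2 ratio of siPkm2 over siNC for each gene: grey circles, squares and triangles are pairs 1, 2 and 3, the filled diamond is the fit with the replicate block and the open diamond the fit without it, with bars of 1 SE. Every pair lies above 0 and the square is lowest for each gene, and the bars of the fit without the block are the wider ones.

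Within siNC, ordered by mean TPM, B2m, H2-K1, H2-D1 and Tapbp followed each other in that order in 3 of 3 libraries. Tapbp and H2-T23 kept their order in 2 of 3, and H2-T23 and H2-T22, like Tap1 and Tap2, in 1 of 3, so these neighbours were not separated by more than the spread. In siPkm2 the order was B2m, H2-K1, H2-D1, H2-T23, Tapbp, H2-T22, H2-Q4, Tap1, Tap2 and Nlrc5, and H2-K1 and H2-D1 kept it in 1 of 3 libraries and H2-T22 and H2-Q4 in 2 of 3. Summed over the 10 genes, their share of all counts was 0.0631%, 0.777% and 0.0752% in siNC and 0.265%, 1.17% and 0.242% in siPkm2.

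Calls required a fold over 2 in either direction and an adjusted p under 0.05 (Benjamini-Hochberg over all genes tested). Without the block edgeR called 0 of the 10 genes and 0.0% of all genes; at an unadjusted p under 0.05 it counted 0 of the 10, against 17.6% of all genes, and DESeq2 called 0 of the 10 higher, against 1.08%. With the block 9 of the 10 were called higher, all but Tap2, whose fold was under 2, against a background of 2.65% of genes called higher, and 10 of 10 had an adjusted p under 0.05 at any fold, against 23.1%. Since the genes were chosen on this contrast, these shares say nothing further about them. On pairs 1 and 3 alone, 9 of the 10 were called higher against 4.94% of genes, while on the pairs other than pair 1, or other than pair 3, no gene of the table was called, although 3937 and 3598 genes had an unadjusted p under 0.05.

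The median log2 fold change of the 10 was 1.06 without the block, beside -0.02 over all genes tested, and 1.63 with it, beside -0.01. Replicate 2 decided the value without the block: leaving out siNC replicate 2 gave a median of 3.21, and leaving out siPkm2 replicate 2 gave 0.0066, with 6 of the 10 genes higher in siPkm2. The medians within pairs 1, 2 and 3 were 2.13, 0.74 and 1.90. Without both replicate 2 libraries, both siPkm2 libraries lay above both siNC libraries for 10 of 10 genes, as for 29.1% of all genes tested.

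**Figure D3:**
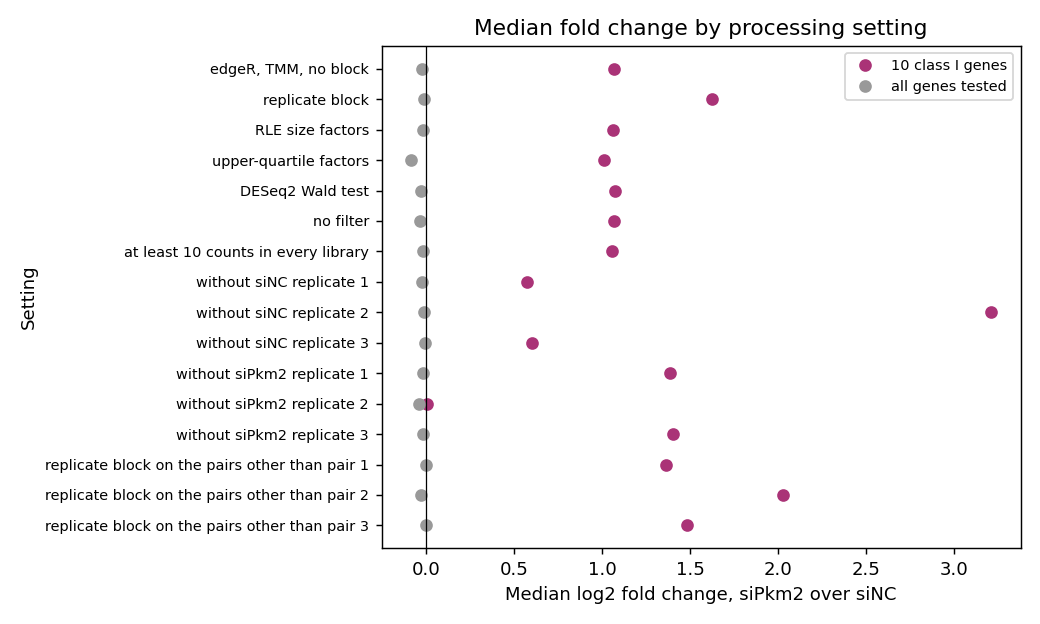
Median log2 fold change of siPkm2 over siNC for the 10 genes (purple) and for all genes tested (grey), 1 row per processing setting. The median over all genes stays near 0, and that of the 10 genes lies between 0.0066 without siPkm2 replicate 2 and 3.21 without siNC replicate 2.

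Of the class I pathway genes outside the 10, 50 were listed, 47 were in the table and 41 were tested. With the replicate block 7 were called higher, against 2.65% of all genes tested, and 0 lower. At any fold 22 had an adjusted p under 0.05, against 23.1% of all genes. The median log2 fold change of the 41 was 0.45, beside -0.01 over all genes. Without the block edgeR called 0 of the 41, with 11 at an unadjusted p under 0.05 (17.6% of all genes), and DESeq2 called 1 higher (1.08%). No gene tested had an adjusted p under 0.05 in edgeR without the block, at any fold. On pairs 1 and 3 alone 9 were called higher (4.94% of genes), and on the pairs other than pair 1 or other than pair 3 the count was 0. Groups that did not overlap, given below for some genes, were found for 24.3% of all genes.

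All 7 tested genes of peptide supply (proteasome subunits, activators and an assembly factor) were higher in siPkm2 in every pair, as were 30.5% of all genes. With the block 2 were called higher, against 2.65% of all genes. Psmb9 and Psmb10, which replace catalytic subunits to make the immunoproteasome, rose by a log2 fold change of 1.70 ± 0.30 (edgeR with the block, adjusted p = 0.020) and 1.09 ± 0.14 (adjusted p = 0.0140). By edgeR without the block the adjusted p was 0.666 for Psmb9 and 0.155 for Psmb10. Without siPkm2 replicate 2 and without the block, Psmb9 stood at -0.12 on the log2 scale. Psmb10 lay at 29.2, 47.2 and 34.7 TPM in siNC and at 51.7, 75.2 and 63.6 TPM in siPkm2, so the groups did not overlap. The remaining immunosubunit, Psmb8, had the widest spread, 3.08, 183 and 11 TPM in siNC against 73.0, 296 and 95.3 TPM in siPkm2, and was not called (log2 fold change 2.62 ± 0.72, adjusted p = 0.0529 by edgeR with the block). Psme1 and Psme2, subunits of the proteasome activator PA28, had log2 fold changes of 0.67 ± 0.08 and 0.82 ± 0.10, under the fold threshold (adjusted p = 0.0131 and 0.0124 by edgeR with the block).

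Loading and trimming partners lay on both sides of 0. Of 8 tested, 0 were called with the block, 5 were higher and the median log2 fold change was 0.14. Calr and Pdia3 encode the lectin chaperone calreticulin and the oxidoreductase ERp57 of the loading complex. Their log2 fold changes were 0.45 ± 0.10 and 0.37 ± 0.09, with groups that did not overlap. Both were under the fold threshold, with an adjusted p of 0.0288 and 0.0443 by edgeR with the block. Canx, which encodes the chaperone calnexin, stood at -0.21 ± 0.11. Erap1, the aminopeptidase that trims peptides in the endoplasmic reticulum, was at 12.1, 39.2 and 17.7 TPM in siNC and at 9.61, 9.80 and 11.3 TPM in siPkm2, a log2 fold change of -0.72 ± 0.30 (adjusted p = 0.131 by edgeR with the block). Ganab, a subunit of the glucosidase that prepares glycans for calnexin and calreticulin, had a log2 fold change of -0.74 ± 0.08 (adjusted p = 0.0117, under the fold threshold), and Tapbpl, a tapasin relative, one of 0.24 ± 0.21.

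Among the heavy chains outside the 10, 12 of 18 in the table were tested and 4 were called higher with the block (2.65% of all genes). Of the 12 tested, GENCODE types H2-T10 and H2-Q5 as polymorphic pseudogenes. It types H2-K2, also tested and named here for its type only, as a transcribed unprocessed pseudogene. H2-Q6, H2-Q7 and H2-T10 had log2 fold changes of 1.74 ± 0.39, 1.47 ± 0.28 and 1.47 ± 0.30 (adjusted p = 0.0326, 0.0237 and 0.0278 by edgeR with the block). Without the block their adjusted p was 0.843, 0.878 and 0.775 by edgeR. Of the 50-base windows of H2-T22 transcripts, 37.5% occurred in H2-T10, and of those of H2-Q4, 7.68% occurred in H2-Q6. Counts of all 3 genes were fractional, so reads of the chosen heavy chains may be counted for them. These 3 genes were low outside replicate 2: H2-Q6 was at 0.11, 57.5 and 0.23 TPM in siNC and at 1.70, 125 and 1.84 TPM in siPkm2. H2-Q7 was at 2.28, 225 and 1.67 TPM in siNC and at 7.79, 409 and 6.16 TPM in siPkm2. Without siPkm2 replicate 2 the log2 fold changes of the fit without the block turned to -3.51 for H2-Q6, -3.28 for H2-Q7 and -0.84 for H2-T10. Hfe, a class I-like regulator of iron uptake, was also called, with a log2 fold change of 1.05 ± 0.21 (adjusted p = 0.0261) and groups that did not overlap. H2-M3, which presents formylated peptides, had a log2 fold change of 0.63 ± 0.14 (adjusted p = 0.0319, under the fold threshold). Fcgrt, the heavy chain of the neonatal Fc receptor and like the others a partner of B2m, lay the other way at -0.61 ± 0.13 (adjusted p = 0.0292, under the fold threshold).

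Among the regulators of class I transcription, Irf1, an interferon-induced activator of class I genes, had a log2 fold change of 0.62 ± 0.14 (adjusted p = 0.0344, under the fold threshold). Its adjusted p was 0.651 by edgeR without the block. Rfx5 and Rfxap, subunits of the RFX complex with which Nlrc5 works, were lower in all 3 pairs with groups that did not overlap, at -0.63 ± 0.10 and -0.69 ± 0.13 on the log2 scale (adjusted p = 0.0163 and 0.0243 by edgeR with the block, under the fold threshold). The 3 NF-Y subunits lay between -0.14 for Nfyc and 0.00 for Nfya on the log2 scale.

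**Figure D4:**
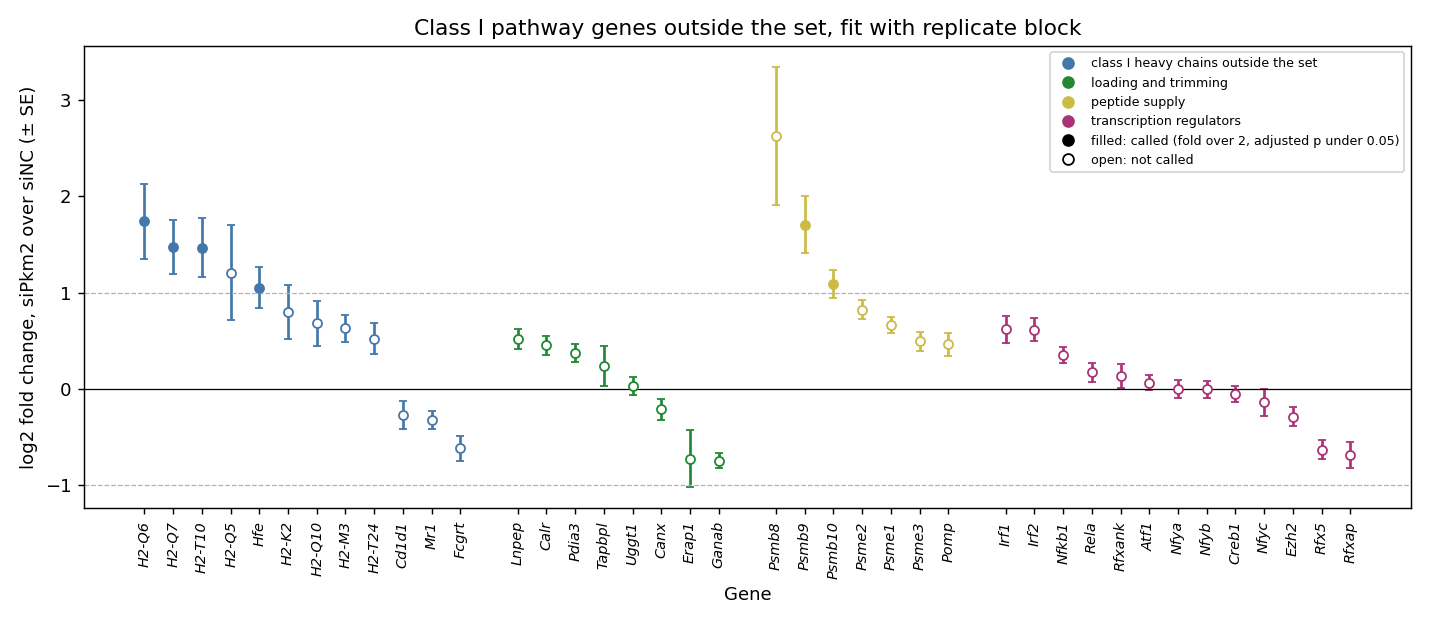
Log2 fold change of siPkm2 over siNC with bars of 1 SE for 40 of the tested class I pathway genes outside the 10, from the fit with the replicate block, in 4 lists by colour. Filled points are the 6 called genes shown, dashed lines mark a fold of 2, and all 7 peptide supply genes lie above 0 while the loading and trimming partners lie on both sides.

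Class II genes present extracellular peptides to CD4+ T cells. Of 11 listed genes 5 were tested and 0 were called by edgeR with the block (1 at an unadjusted p under 0.05) or by DESeq2. Ciita, the class II counterpart of Nlrc5, reached at most 0.47 TPM in any library. Cd74, the invariant chain, stood between 1.23 and 4.04 TPM with a log2 fold change of -0.76 ± 0.34 (adjusted p = 0.158), and H2-Ab1 was lower in all 3 pairs at -0.42 ± 0.12 (adjusted p = 0.0544).

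Of 9 tested ligands that natural killer and T cells read beside class I, Cd274, the checkpoint ligand PD-L1, was the only one called. Cd274 was at 0.27, 4.79 and 0.57 TPM in siNC and at 4.81, 10.3 and 3.36 TPM in siPkm2, a log2 fold change of 2.40 ± 0.54 (adjusted p = 0.0334 by edgeR with the block, 0.416 without it). Nectin2 and Cd47, the latter a signal to phagocytes, were higher in all 3 pairs at 0.88 ± 0.10 and 0.59 ± 0.10 on the log2 scale (adjusted p = 0.0118 and 0.0183 by edgeR with the block, under the fold threshold). Raet1d, which encodes a ligand of the activating receptor NKG2D, was lower in all 3 pairs at -0.89 ± 0.16 on the log2 scale (adjusted p = 0.020, under the fold threshold).

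Interferon transcripts were at or near 0. Ifnb1, interferon beta, was listed at 0.67 TPM in siNC replicate 2 and at 3.45 TPM in siPkm2 replicate 2 and at 0 in the other 4 libraries, and Ifng, interferon gamma, at 0 in all 6. Of the 6 tested interferon receptor genes 0 were called with the block, and 1 had an unadjusted p under 0.05.

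Markers of other cells were summed beside the class I genes, and their part in the results was not tested. In bulk RNA, fewer cells of a type and less RNA per cell cannot be told apart. Of 12 macrophage markers, 8 stayed under 1 TPM in every library, among them Ptprc and Adgre1, and the sum ran from 12 to 119 TPM in siNC and from 17.6 to 88.3 TPM in siPkm2, highest in replicate 2 of each group. Most of that sum was Cd68, at 92.8 TPM in siNC replicate 2 and 53.4 TPM in siPkm2 replicate 2, with Cd14 next at 18.9 and 29.0 TPM. With the block Cd14 was called higher (log2 fold change 1.35 ± 0.34, adjusted p = 0.0432 by edgeR). All 9 lymphocyte markers stayed under 1 TPM and Cd3e, Nkg7 and Ncr1 were at 0 throughout, while the sum of 5 dendritic cell markers, nearly all of it Zbtb46, ran from 5.67 to 6.88 TPM over all libraries. The 6 synovial fibroblast markers summed to 117, 353 and 139 TPM in siNC and to 265, 453 and 344 TPM in siPkm2, higher in siPkm2 in every pair. Of these Prg4 and Pdpn were called higher with the block, as was Des among the muscle markers. Prg4 does not mark other cells only: the study names PRG4 among matrix genes expressed in a subgroup of human chondrocytes. The 6 osteoblast markers summed to 47.6 to 337 TPM in siNC and 45.9 to 139 TPM in siPkm2, and Ibsp among them was called lower with the block.

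**Figure D5:**
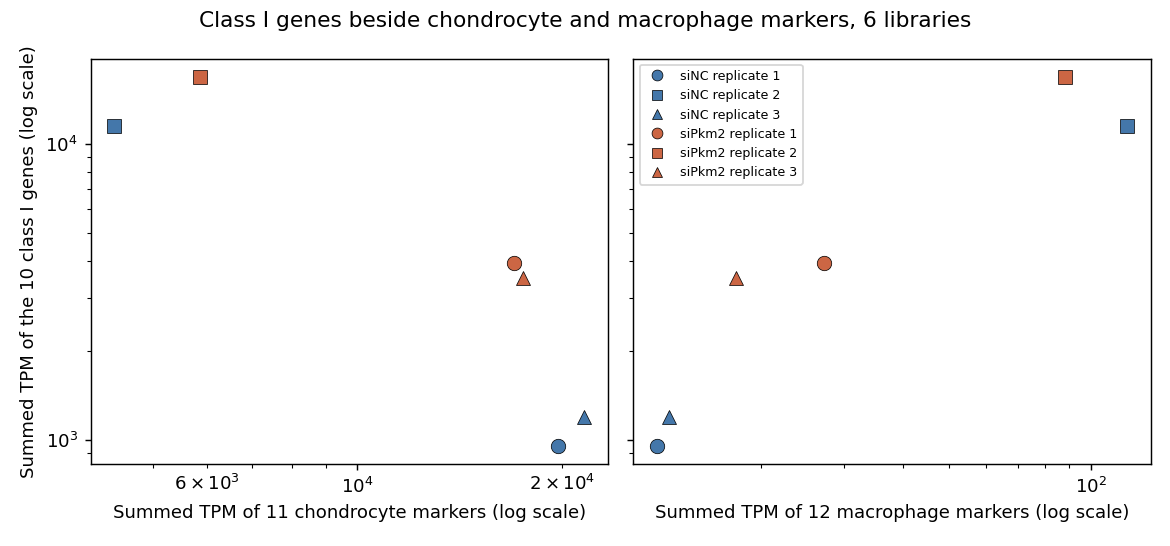
Summed TPM of the 10 class I genes against the summed TPM of 11 chondrocyte markers (left) and 12 macrophage markers (right), all on log scales, for the 6 libraries. The replicate 2 libraries (squares) have the highest class I sums, 11474 TPM in siNC and 16800 TPM in siPkm2, the lowest chondrocyte sums and the highest macrophage sums.

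The 10 genes varied together over the 6 libraries. Each correlated with their mean standardised profile at a Pearson r between 0.977 for Tap2 and 0.998 for H2-D1, a description over 6 libraries that share the high level of replicate 2. Outside every list, the genes with the most similar profiles were Elf1, Il6, Slfn2, Gbp2, Arid3a, Sp100, Helz2 and Mt1, at r from 0.996 to 0.999 over the 6 libraries. Il6, which encodes an inflammatory cytokine, was at 0.24, 65.0 and 0.82 TPM in siNC and at 9.82, 160 and 12.9 TPM in siPkm2, and Gbp2, an interferon-induced GTPase, at 2.61, 64.9 and 4.96 TPM and at 18.7, 93.0 and 19.3 TPM. Mt1, a metallothionein that binds metal ions, followed the same order of libraries, from 197 TPM in siNC replicate 1 to 1717 TPM in siPkm2 replicate 2.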

How the data were processed

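Per gene and per library, the authors deposited estimated counts without normalisation, of which 33.1% of the nonzero values were not whole, and TPM values that the authors scaled within each library. The deposited table also holds the authors' group means of TPM and their own comparison (a fold ratio, a log2 fold change, a p-value and an adjusted p-value), which were not used. The submitters' processing notes name the build mm9 and edgeR, without a role. The aligner and counter are not given in the sources used here. Gene positions came by identifier from GENCODE M21 on GRCm38.

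After rounding to whole numbers, the counts were fitted in R 4.3.3 with edgeR 4.0.16 (filterByExpr, TMM factors, quasi-likelihood test), without and with the replicate number as a block, and with DESeq2 1.42.0. The main design had no block. As every pair's correlation was over 0.1, blocked values are given beside it. Log2 ratios within pairs used TMM-scaled CPM (counts scaled to a common library total) plus 0.5. Each SE of an edgeR fold change was derived as the absolute log2 fold change over the square root of the quasi-likelihood F statistic. Nothing in the sources says what separates the cultures of a group beyond their numbers. The p-values without the block therefore measure the spread between these libraries. Those with the block measure the spread of the differences within these pairs. The edgeR fits were tested on simulated data with known changes. Those data had a fixed dispersion and no replicate number set apart across genes as replicate 2 is here. That test therefore cannot show how the fits behave on these libraries.

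Some listed genes are counted in the totals but not reported here by name. The genes and lists were chosen with earlier results of these data known. Named outside the 10 were all listed genes called in either fit, at most 10 per list, 17 immunoproteasome, loading, regulator, class II, interferon and ligand genes listed by name, and the 8 genes of most similar profile. Psme1, Psme2, Ganab, Rfxap, Nfya, Nfyc, Fcgrt, H2-Ab1, Raet1d, Nectin2, Cd47, Ifng and the markers not called were named after their values were seen. Other settings were RLE and upper-quartile factors, DESeq2, other filters, no threshold on the fold, TPM with pseudocounts of 0.05 and 0.5, each library left out, and each pair left out of the blocked fit.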

Additional observations from a re-analysis of the deposited data

How the results depend on the processing

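Without the block edgeR called 0 genes of the table and 0 of the 41 class I pathway genes outside the set. With the replicate block, which pairs libraries of the same number, the counts were 890 and 7, and on the pairs other than pair 2 they were 1639 and 9. DESeq2 called 430 and 1. Upper-quartile factors, no filter and at least 10 counts in every library called 3, 9 and 3 genes of the table. Leaving out each library in turn gave 0 to 105 genes of the table and 0 to 3 of the pathway genes, with the highest counts without siNC replicate 2. The cause of these differences was not tested.

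The median log2 fold change of the 10 genes was 1.06 and ran from 0.0066 to 3.21 when 1 library was left out, and it was 2.03 with the block on the pairs other than pair 2. Of 170 alternative values of the 10 genes, 166 were above 0 and 32 moved by more than the spread. The 4 values below 0 all came without siPkm2 replicate 2, for H2-K1 (-0.62), B2m (-0.14), H2-T22 (-0.10) and Tapbp (-0.04). Each group held 3 libraries of 22316996 to 25691029 counts, and how far depth limits these values was not tested.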

Other observations

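In replicate 2, H2-Q5, typed as a polymorphic pseudogene, and the heavy chain H2-Q10 stood far above their levels in replicate 1 of the same group. Counts of both were fractional. In siNC replicate 2, H2-Q5 stood at 64.9 TPM and H2-Q10 at 14.7 TPM, against 0.13 and 0.28 TPM in siNC replicate 1. In siPkm2 replicate 2 they stood at 197 and 20.8 TPM, against 1.68 and 0.43 TPM in siPkm2 replicate 1. H2-T24 did not show this, at 14.4, 24.6 and 19.6 TPM in siNC and 25.8, 25.7 and 26.2 TPM in siPkm2. H2-Q1 and H2-Q2 were low in siNC replicate 2 as well, at 0.25 and 0.27 TPM. These genes were chosen after their values were seen.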
